A study of Kluyveromyces marxianus and Saccharomyces cerevisiae with 12 samples.

Results

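Of 5319 Kluyveromyces marxianus loci measured in a wine fermentation, 47 had a mean of at least 50 FPKM at 6 h and at least 8-fold less at 36 h. FPKM is the number of sequenced fragments per 1000 bases of transcript and per 1000000 mapped fragments, and 1 FPKM was added to both means before the ratio was taken. The same thresholds were met by 54 loci, which is 2.49% of the 2172 loci with 50 FPKM or more at 6 h, and 7 of these were set aside by the rule that chose the 47. The 7 were LYS9, LEU4, HTB2, HHF2, TUB2, DSE2 and MUC1. The 47 were therefore chosen on the very difference between 6 h and 36 h, so the size and direction of that difference are given here as a description and are supported by no test.

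The samples were IWBT Y855, a K. marxianus wine yeast, at 6 h and at 36 h, with 3 samples at each time and no genetic change or added drug named in the labels. All of them grew at 25 °C in a medium that held sugars at 230 g/l, assimilable nitrogen (amino acids and ammonium) at 200 mg/l and phytosterols at 10 mg/l. Saccharomyces cerevisiae EC1118 was sampled in the same study at 6 h and 20 h, and its loci bring the series to 11780. The labels do not say whether the 3 samples of a time came from separate cultures, so the spread between them may be technical.

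Yeasts make every amino acid themselves, and in S. cerevisiae the genes for these pathways are switched on together by the transcription factor Gcn4 when amino acids run short. Histones, tubulin, the G1 cyclins and the enzymes that cut a daughter cell free are made at set points of the division cycle, so their transcripts are abundant in populations that are budding. The roles given below are those known from S. cerevisiae.

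By role, 17 of the 47 encode enzymes of lysine, arginine, aromatic or histidine synthesis, 4 more belong to amino acid or nitrogen use, and 9 encode histones or proteins of the division cycle, the bud and the wall. The other 17 comprise 3 loci of the vacuole, 3 of mitochondrial membrane transport, 4 of lipids, peroxisomes and the endoplasmic reticulum, 1 pheromone receptor, 1 enzyme of nucleotide clean-up and 5 loci with another role or no symbol. A gene symbol was at hand for 44 of them. Their 6 h means ran from 51.1 to 5598 FPKM with a median of 211 FPKM, against a median of 117 FPKM in the other 2125 loci at 50 FPKM or more. At 36 h their means ran from 0 to 307 FPKM with a median of 15.96 FPKM, and 16 of them were under 10 FPKM. The ratio of the means was 16-fold or more in 14 loci and under 10-fold in 19.

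**Figure D1:**
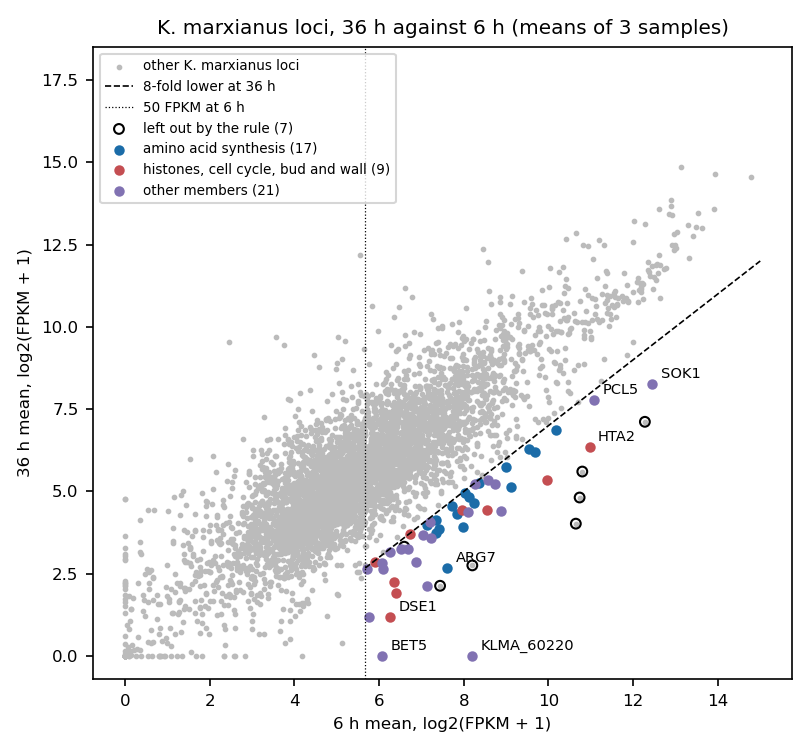
Mean level of each K. marxianus locus at 36 h (vertical axis) against 6 h (horizontal axis), both as log2(FPKM + 1) over 3 samples. The 47 loci lie below the dashed line of an 8-fold lower level and to the right of the dotted line at 50 FPKM, with BET5 and KLMA_60220 at 0 at 36 h and open circles for the 7 loci set aside.

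The values at the thresholds change by small steps. AIM44 and APE1 entered at 8.08-fold each, while KLMA_40622 (1649 FPKM at 6 h and 209 FPKM at 36 h) at 7.86-fold and the SSA2 locus KLMA_20459 (515 and 64.9 FPKM) at 7.84-fold stayed outside. At the 6 h floor, MRI1 with 51.1 FPKM and STE3 with 52.8 FPKM were inside. The chitinase gene CTS1, with 46.7 FPKM and a 9.25-fold lower level at 36 h, and NRM1, a repressor of G1/S transcription, with 34.0 FPKM and a 26.3-fold lower level, were outside.

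Across all K. marxianus loci, limma on log2(FPKM + 1) with Benjamini-Hochberg adjustment at 0.05 called 960 of 4929 tested loci lower at 36 h (19.5%) and 1048 higher (21.3%). All 47 passed the filter of a mean of 1 FPKM and all 47 were among the lower calls, which the rule made nearly certain. In 46 of the 47 every 36 h sample lay below every 6 h sample, a separation also seen in 25.2% of the loci tested. FPKM are shares of a sample's RNA, and in such bulk samples fewer cells in a given state and less RNA per cell cannot be told apart. Fragment totals recovered from the confidence bounds were 6.70, 5.36 and 6.59 M (1 M is 1000000 fragments) in the 6 h replicates 1, 2 and 3 and 4.28, 10.5 and 7.01 M at 36 h, with replicate 2 at 6 h counted from 3 of its 7 tables.

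**Figure D2:**
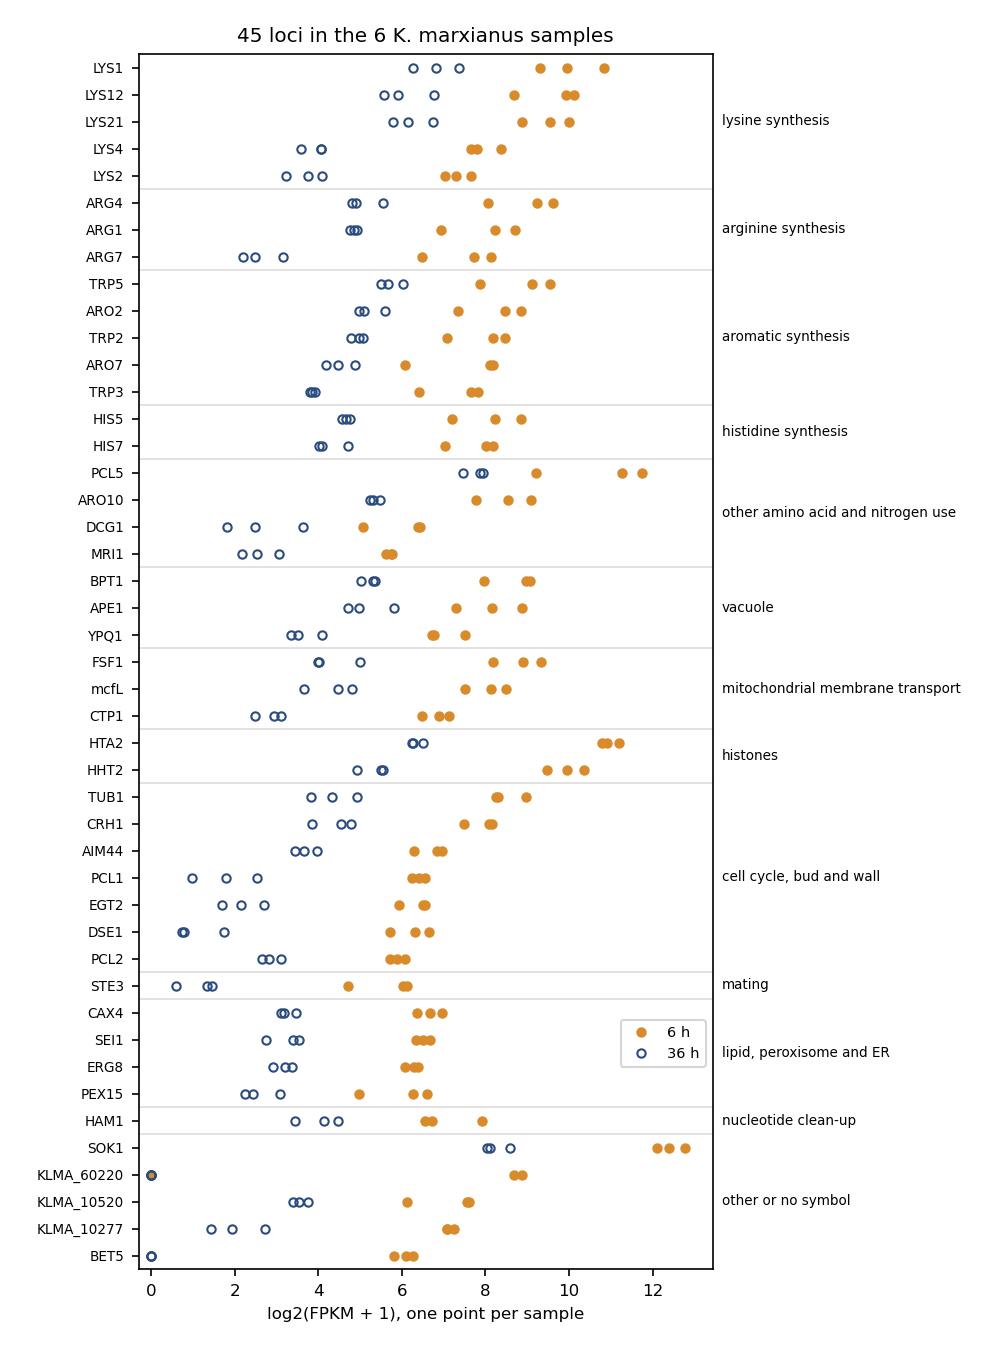
Level of 45 of the 47 loci in the 3 samples at 6 h (filled) and the 3 at 36 h (open), as log2(FPKM + 1), with 1 point per sample and the loci grouped by role. KLMA_60220 is the locus whose times overlap, since it was at 0 in replicate 1 at 6 h and in all 36 h samples.

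Lysine synthesis held 6 of the 47 loci, from the first step of the pathway to the last. LYS21 (KLMA_10771), whose homocitrate synthase opens the pathway, stood at 467, 1015 and 746 FPKM in the 6 h replicates 1, 2 and 3, and at 106, 70.3 and 54.1 FPKM at 36 h. LYS4, homoaconitase (chromosome 3, 1129972 to 1132089), was at 219.9, 330.5 and 201 FPKM at 6 h and at 15.9, 11.1 and 15.8 FPKM at 36 h, a 16.5-fold lower level. LYS12, homoisocitrate dehydrogenase, went from 412, 1103 and 965 FPKM to 109, 59.5 and 46.8 FPKM. In each of the 3 every 6 h sample lay above every 36 h sample, and LYS4 varied less among the 6 h samples than LYS12 did. LYS1, saccharopine dehydrogenase of the last step, had the highest level of the group, 628, 1837 and 986 FPKM at 6 h and 164, 75.5 and 111 FPKM at 36 h. LYS2, alpha-aminoadipate reductase, had means of 162 ± 35.3 FPKM (SD, n = 3) at 6 h and 12.3 ± 3.82 FPKM (SD, n = 3) at 36 h. LYS21 and LYS12 stood at like levels, and the ratios of these 5 lay between 9.55-fold and 16.5-fold.

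The lysine list holds 10 loci, of which 9 were called lower by limma and 0 higher, with a median log2 change of -3.23. Since 7 of the 10 met the thresholds, that median follows from the choice. Over the 4 loci outside the 47, 3 were called lower with a median of -2.15, against -0.00 over all loci tested. LYS9 is 1 of these 4 and met the thresholds too, so this median also follows in part from the choice. Beside the 6 and the set-aside LYS9, the second LYS21 locus, KLMA_60493, fell from 1467 ± 561 to 252 ± 71.5 FPKM (SD, n = 3 each, limma adjusted p = 0.000581), a 5.79-fold lower level. The 2 LYS21 loci carry the same symbol, and how the authors' counting divided fragments between similar loci is unknown. LYS5, which activates the reductase, fell from 24.8 to 6.06 FPKM (limma adjusted p = 0.00810), whereas LYS14, the pathway's transcription factor, had 64.4 FPKM at 6 h and 52.7 FPKM at 36 h and was not called. LYS4 overlaps the unnamed KLMA_30528 by 465 nt, and that partner was at 0 in all 6 samples. The labels do not say that strand was used in counting, so fragments of overlapping loci cannot be told apart.

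Arginine synthesis held 4 loci. ARG7, ornithine acetyltransferase (chromosome 6, 394814 to 396148), had 89.1, 279.9 and 212 FPKM at 6 h and 7.93, 4.58 and 3.60 FPKM at 36 h, a 30.6-fold lower level. ARG4, argininosuccinate lyase, had 265, 789 and 605 FPKM at 6 h and 45.9, 27.0 and 28.8 FPKM at 36 h. ARG1, argininosuccinate synthetase, had 121, 414 and 297 FPKM at 6 h and 27.7, 26.2 and 29.3 FPKM at 36 h. In all 3 the 6 h replicate 1 was the lowest sample of its time and still above every 36 h sample.

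Of the 11 loci in the arginine list 8 were called lower and 0 higher, with a median log2 change of -1.51. Without the 4 chosen for their fall, 4 of 7 were called lower and the median was -1.27. Outside the 4, the 3 with the largest change were ARG8, from 512 to 109 FPKM (limma adjusted p = 0.00244), ARG56, from 236 to 78.2 FPKM (limma adjusted p = 0.00649), and ARG2, from 114 to 41.2 FPKM (limma adjusted p = 0.0192). These act before ARG7 in the making of ornithine, and the mitochondrial carriers ORT1 and AGC1 were not called.

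Aromatic amino acid synthesis held 5 loci, 2 of the common trunk and its branch and 3 of the tryptophan branch. ARO2, chorismate synthase, had 162, 459 and 356 FPKM at 6 h and 47.4, 33.2 and 30.3 FPKM at 36 h. ARO7, the chorismate mutase that leads to phenylalanine and tyrosine, had 66.9, 289.6 and 277 FPKM at 6 h and 28.6, 21.2 and 17.1 FPKM at 36 h. TRP5, tryptophan synthase, had 234, 743 and 549.6 FPKM at 6 h and 64.5, 44.4 and 49.7 FPKM at 36 h. In each of these loci the 6 h replicate 1 stood well below the other two 6 h samples, and in ARO7 it was more than 2 times the highest 36 h sample. TRP2 and TRP3, the anthranilate synthase pair, had mean levels of 259.7 and 169.8 FPKM at 6 h and of 29.9 and 13.42 FPKM at 36 h. Of the 15 loci in the list, 10 were called lower and 2 higher, with a median log2 change of -2.003. Of the 10 outside the 5 chosen for their fall, 5 were called lower, 2 higher and 3 not called, with a median of -0.85. TRP4, from 67.6 to 7.87 FPKM (limma adjusted p = 0.000153), and ARO3, from 988 to 137 FPKM (limma adjusted p = 6.72e-05), fell nearly as far, and ARO1 fell from 189 to 46.2 FPKM (limma adjusted p = 0.000528).

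Histidine synthesis held HIS5 and HIS7. HIS5, histidinol-phosphate aminotransferase, had 146, 459 and 299.8 FPKM at 6 h and 22.8, 24.2 and 25.9 FPKM at 36 h. HIS7, imidazole glycerol phosphate synthase, had 129.9, 291 and 258 FPKM at 6 h and 25.0, 15.1 and 16.01 FPKM at 36 h. Their ratios of 11.96-fold and 11.5-fold were close to each other. All 7 loci of the histidine list were called lower, with a median log2 change of -2.61 over the list and of -1.99 over the 5 outside the pair. HIS1 (1019.8 to 150.3 FPKM), HIS4 (397 to 61.2 FPKM) and HIS3 (302 to 69.8 FPKM) had the largest change of these 5.

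The branched-chain pathway contributed none of the 47 loci, its LEU4 locus KLMA_50402 having been set aside. Its list had 10 of 12 loci called lower and 1 higher, with a median log2 change of -2.29, and 8 of the 12 had a log2 change between -2 and -3. LEU4, which met the thresholds, is 1 of the 10 and enters this median. ILV5 went from 2437 to 328 FPKM and LEU1 from 599 to 101 FPKM. Other amino acid lists without any of the 47 did not all move one way. Serine, glycine, threonine and homoserine synthesis had 8 of 12 loci called lower (median log2 change -1.60), and proline synthesis 2 of 3 (-1.37). Sulfur assimilation and methionine had 5 of 23 called lower and 5 higher (0.16). The glutamate, glutamine and aspartate family had 3 of 12 lower and 4 higher (0.61). For ammonium and amino acid uptake 3 of 39 were lower and 18 higher (0.77).

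PCL5 (chromosome 7, 768424 to 769092) encodes the Pho85 cyclin that in S. cerevisiae marks Gcn4 for degradation, and its own transcription depends on Gcn4. It had 595, 3430.2 and 2449 FPKM at 6 h and 246, 232 and 174 FPKM at 36 h. Among the 47 loci it had the largest gap between 6 h replicates other than KLMA_60220, its replicate 1 being at 20.3% of the mean of replicates 2 and 3. GCN4 itself had 632 ± 32.1 FPKM at 6 h and 595 ± 119 FPKM at 36 h (SD, n = 3 each). Its log2 change of -0.11 ± 0.27 (SE) was not called. In S. cerevisiae this factor is controlled largely at translation, and whether its activity changed here was not tested. Of 11 regulators of these genes, a list put together after the 47 were seen, 0 were called lower and 3 higher, namely BAS1, ARG81 and LEU3. At an unadjusted p under 0.05 limma gave 0 of them lower and voom gave 1, and 0 lower after adjustment. The counts of 0 higher loci in the lysine, arginine, histidine and histone lists were also 0 at an unadjusted p under 0.05 with both tools.

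ARO10, DCG1 and MRI1 complete the loci of amino acid and nitrogen use. ARO10, the decarboxylase of the Ehrlich pathway that turns aromatic amino acids into fusel alcohols, had 216, 543 and 371 FPKM at 6 h and 43.5, 36.9 and 38.6 FPKM at 36 h. DCG1, a gene under nitrogen catabolite repression, had 32.7, 85.1 and 82.2 FPKM at 6 h and 11.4, 4.56 and 2.51 FPKM at 36 h. MRI1, of the methionine salvage pathway, had 53.5, 52.1 and 47.8 FPKM at 6 h and 7.38, 3.501 and 4.83 FPKM at 36 h. MRI1 was steady among the 6 h samples and lay just above the floor, whereas ARO10 and DCG1 were lowest in replicate 1. Their lists did not move one way. Of the 15 Ehrlich loci 4 were called lower and 6 higher, with a median log2 change of 0.40, and of 39 loci under nitrogen catabolite repression 8 were called lower and 15 higher, with a median of 0.15.

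**Figure D3:**
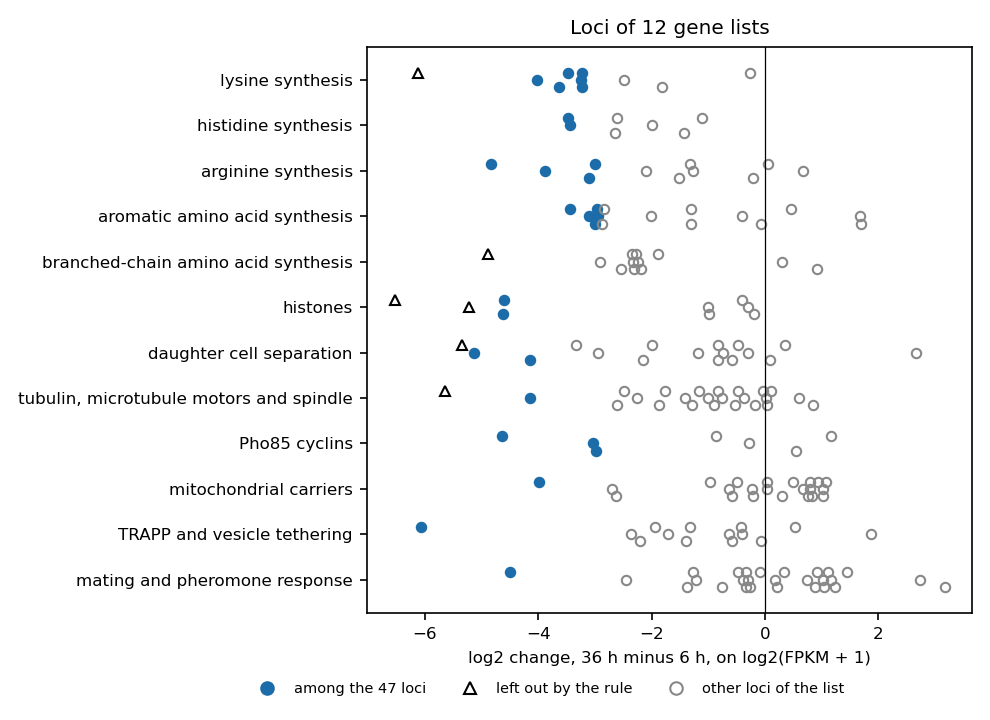
Log2 change from 6 h to 36 h, on log2(FPKM + 1), of every tested locus in 12 gene lists, with filled points for the 47 loci, triangles for those set aside and open points for the rest. The filled points lie low because the 47 were chosen by this change. The median of the loci outside the 47 is below 0 in the amino acid lists. It is above 0 in the carrier, mating and Pho85 cyclin lists. Loci set aside are counted in these medians.

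The vacuole, where yeast stores basic amino acids, gave 3 loci. YPQ1, a vacuolar membrane transporter of basic amino acids, had 105, 180.0 and 108 FPKM at 6 h and 9.14, 10.4 and 16.1 FPKM at 36 h. APE1, a vacuolar aminopeptidase, had means of 304 ± 158 and 36.8 ± 15.8 FPKM (SD, n = 3 each). BPT1, a vacuolar ABC transporter, had means of 429 ± 155 and 36.7 ± 4.49 FPKM (SD, n = 3 each).

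Mitochondrial membrane transport also gave 3 loci. FSF1, an inner membrane protein of the sideroflexin family, had 291, 641 and 473 FPKM at 6 h and 30.9, 14.8 and 15.2 FPKM at 36 h, a 22.02-fold lower level. CTP1, the citrate carrier (chromosome 6, 715729 to 716625), had 118, 139.7 and 89.0 FPKM at 6 h and 6.71, 7.59 and 4.62 FPKM at 36 h. The locus named mcfL, after a carrier of Dictyostelium, had means of 273 ± 88.1 and 20.0 ± 7.72 FPKM (SD, n = 3 each). CTP1 varied less among the 6 h samples than FSF1 did, and its ratio of 15.9-fold was among the larger ones. The list of mitochondrial carriers as a whole had 3 of 22 loci called lower and 5 higher, with a median log2 change of 0.18. The other lower calls were ODC2, the oxodicarboxylate carrier, from 500.3 to 72.4 FPKM (limma adjusted p = 0.000163), and YHM2, a citrate and oxoglutarate carrier, from 604 to 96.6 FPKM (limma adjusted p = 0.000261). MPC1, a subunit of the pyruvate carrier, rose from 167 to 356 FPKM (limma adjusted p = 0.00867).

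The 2 histone loci were among the most abundant of the 47 at 6 h. HTA2, histone H2A (chromosome 6, 267552 to 267944), had 1765, 1911 and 2344 FPKM at 6 h and 89.6, 74.8 and 76.1 FPKM at 36 h. HHT2, histone H3 (chromosome 8, 272023 to 272433), had 1314, 997 and 705 FPKM at 6 h and 44.5, 45.8 and 29.2 FPKM at 36 h. Their ratios were 24.7-fold and 24.6-fold, and the lowest 6 h sample of either was more than 10 times its highest 36 h sample. Each has a set-aside histone locus as its neighbour, HTB2 (H2B) 973 nt from HTA2 and HHF2 (H4) 738 nt from HHT2. HTB2 had means of 1601 and 15.2 FPKM, and HHF2 of 1779.8 and 47.6 FPKM.

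Histones H2A, H2B and H3 have a second locus with another pattern, although the difference between the loci was not tested. The histone list holds no second locus for H4. HTA1 had 3764 ± 1960.5 FPKM at 6 h and 1742 ± 348 FPKM at 36 h, HTB1 had 2669 ± 852 and 1991 ± 598 FPKM, and HHT1 had 10047 ± 2229 and 8807 ± 4670.5 FPKM (SD, n = 3 each). None of the 3 was called by limma, with adjusted p of 0.0554, 0.378 and 0.569, but voom on recovered fragments called HTA1 lower (log2 change -1.18 ± 0.41 SE, adjusted p = 0.0427). Of the 9 histone loci limma called 5 lower and 0 higher, with a median log2 change of -1.01, which 4 loci that met the thresholds help to set, the fifth being the centromeric histone CSE4 (31.9 to 16.4 FPKM, limma adjusted p = 0.0378). HTA1 and HTB1 are neighbours 715 nt apart, like HTA2 and HTB2. At 6 h HTA2 thus stood at 2007 FPKM beside 3764 FPKM for HTA1, and at 36 h at 80.2 FPKM beside 1742 FPKM. HHT2 stood at 1005 FPKM beside 10047 FPKM for HHT1 at 6 h, and at 39.8 FPKM beside 8807 FPKM at 36 h. Copies of a histone gene can share fragments, and the way these were divided between loci is unknown.

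The locus with the highest 6 h level of the 47 was KLMA_60128, for which RefSeq gives the symbol SOK1. It had 5340.1, 7049 and 4407 FPKM at 6 h and 384, 263 and 273 FPKM at 36 h, an 18.2-fold lower level. The deposited locus covers 312 nt (chromosome 6, 295853 to 296164), whereas the RefSeq gene of that tag runs from 291236 to 296164, a span of 4929 nt. The values are thus those of the last 312 nt of that span in coordinate order, and they say nothing of the rest of the span. Whether these 312 nt belong to SOK1 was not tested. The locus ends 840 nt from HHT1, and its length of 312 nt is also that of the HHF2 locus, which neighbours HHT2. No sequence of the locus was used here, so it keeps its tag.

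TUB1 (KLMA_70260), alpha-tubulin, is the other locus whose extent differs from RefSeq, 732 nt in the tables against 1795 nt. It had 503, 314 and 304 FPKM at 6 h and 29.5, 13.2 and 19.1 FPKM at 36 h, a 17.4-fold lower level. The beta-tubulin gene TUB2 was set aside, with means of 293 and 5.74 FPKM. Of the 24 loci of tubulin, microtubule motors and the spindle 12 were called lower and 1 higher, with a median log2 change of -0.86. Without TUB1, 11 of 23 were called lower, with a median of -0.82, and TUB2 is still counted there. CIN8, a kinesin of the spindle, went from 8.77 to 0.591 FPKM (limma adjusted p = 0.000517), ASE1 from 17.1 to 2.05 FPKM and SPC110 from 14.5 to 2.28 FPKM.

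PCL1 and PCL2 are G1 cyclins that bind the kinase Pho85. PCL1 (chromosome 7, 812345 to 813190) had 92.5, 84.4 and 74.7 FPKM at 6 h and 4.797, 2.45 and 0.972 FPKM at 36 h, a 22.7-fold lower level. PCL2 had 58.5, 65.9 and 51.8 FPKM at 6 h and 7.56, 5.31 and 6.07 FPKM at 36 h, an 8.17-fold lower level. Both were steady among the 6 h samples, unlike PCL5. In a list of 7 Pho85 cyclins and their kinase, put together after the 47 were seen, the 3 lower calls were PCL1, PCL2 and PCL5. PCL6, another Pho85 cyclin, rose from 42.8 to 96.9 FPKM (limma adjusted p = 0.00514), and PHO85 itself had 129 FPKM at 6 h and 72.3 FPKM at 36 h and was not called (limma adjusted p = 0.0571).

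Daughter cell separation gave DSE1 and EGT2. DSE1, a gene transcribed in daughter cells (chromosome 7, 841064 to 842779), had 51.4, 98.8 and 78.1 FPKM at 6 h and 2.36, 0.734 and 0.673 FPKM at 36 h. EGT2, which acts on the septum wall in early G1, had 92.9, 89.5 and 60.2 FPKM at 6 h and 2.25, 3.45 and 5.499 FPKM at 36 h. The 36 h values of DSE1 rested on 25, 19 and 16 fragments, and its 34.2-fold lower level was the largest among those of the 47 above 0 at 36 h. The list of 17 loci had 8 called lower and 1 higher, with a median log2 change of -0.82. Without DSE1 and EGT2, 6 of 15 were called lower, with a median of -0.82, and DSE2 is still counted there. Beside DSE1, EGT2 and the set-aside DSE2, the wall protein gene PIR1 fell from 342 to 43.7 FPKM (limma adjusted p = 3.23e-05) and the chitinase gene CTS1 from 46.7 to 4.15 FPKM. SWI5, whose product switches on genes of this kind in early G1, rose from 19.5 to 123 FPKM (limma adjusted p = 0.00107).

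CRH1 and AIM44 act at the bud neck and the wall. CRH1, which links chitin to glucan, had 286, 272 and 179.8 FPKM at 6 h and 26.7, 13.5 and 22.3 FPKM at 36 h. AIM44, which keeps a used bud site from being used again, had 113, 123 and 77.4 FPKM at 6 h and 11.6, 9.86 and 14.7 FPKM at 36 h. The cell wall list had 13 of 34 loci called lower and 3 higher with a median log2 change of -0.24. Over its 33 loci outside the 47, of which 1 was set aside, 12 were called lower with a median of -0.22. The septin and cytokinesis list, which holds none of the 47, had 17 of 28 called lower and 1 higher with a median of -1.35. Of the other division cycle lists without any of them, mitosis and cyclins had 12 of 30 called lower and 18 not called (median -0.61). The list of G1/S and DNA replication had 9 of its 47 loci called lower, 4 higher and 34 not called (median -0.10).

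STE3 encodes the receptor for a-factor, the pheromone that a cells make. It had 25.4, 64.6 and 68.6 FPKM at 6 h and 1.76, 1.51 and 0.517 FPKM at 36 h, resting on 9, 32 and 8 fragments at 36 h. STE2, the receptor for the other pheromone, had 17.5 FPKM at 6 h and 6.21 FPKM at 36 h (limma adjusted p = 0.00446) and was named after its values were seen. Of the 27 loci of mating and pheromone response 6 were called lower and 8 higher, with a median log2 change of 0.17. STE6, the exporter of a-factor, fell from 15.4 to 1.99 FPKM (limma adjusted p = 0.000259), while AFB1 rose from 2.50 to 30.1 FPKM (limma adjusted p = 0.000112) and STE18 from 9.06 to 62.9 FPKM (limma adjusted p = 0.000734).

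Lipids, peroxisomes and the endoplasmic reticulum gave 4 loci of moderate level, with 6 h means from 67.5 to 102 FPKM and ratios from 8.44-fold to 10.97-fold. ERG8, phosphomevalonate kinase of the sterol pathway, had 81.9, 77.0 and 66.5 FPKM at 6 h and 9.35, 6.49 and 8.23 FPKM at 36 h. SEI1, seipin of lipid droplets, had means of 90.6 ± 10.6 and 8.62 ± 2.60 FPKM (SD, n = 3 each). CAX4, a dolichyl pyrophosphate phosphatase of glycosylation, had 102 ± 21.8 and 8.61 ± 1.32 FPKM, and PEX15, a peroxisome membrane anchor, had 67.5 ± 33.6 and 5.25 ± 2.01 FPKM (SD, n = 3 each). The sterol list had 12 of 26 loci called lower and 2 higher, with a median log2 change of -0.65. Without ERG8, which was chosen for its fall, 11 of 25 were called lower and the median was -0.41. ERG8 had the lowest value of that list, while HMG1, the reductase of an earlier step, rose from 148 to 611 FPKM (limma adjusted p = 0.0003999). HAM1, which removes abnormal purine nucleotides, had 92.6, 241 and 104 FPKM at 6 h and 21.3, 16.7 and 9.90 FPKM at 36 h.

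BET5 and KLMA_60220 were listed at 0 in every 36 h sample, so no fold is given for them. BET5 (chromosome 4, 1019001 to 1019557), a subunit of the TRAPP vesicle tethering complex, had 68.0, 76.1 and 54.7 FPKM at 6 h and was at 0 in all 16 tables of the 36 h samples. It was also at 0 in 1 table of replicate 2 at 6 h, in which other tables of that sample gave 76.1 to 122 FPKM. BET5 overlaps WAR1 by 6 nt, and WAR1 rose from 33.3 to 61.1 FPKM (limma adjusted p = 0.0225). Whether the zeros are low transcript levels or fragments assigned elsewhere was not tested. Of the 14 loci of TRAPP and vesicle tethering 7 were called lower and 1 higher, with a median log2 change of -0.98. Without BET5, which was chosen for its fall, 6 of 13 were called lower and the median was -0.63. BET1 went from 50.7 to 9.23 FPKM (limma adjusted p = 0.000129) and TRS31 from 25.0 to 4.61 FPKM, whereas TRS23 rose from 38.6 to 144 FPKM (limma adjusted p = 0.000277).

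KLMA_60220 is a 336-nt locus without a symbol, inside the pyruvate kinase gene PYK2. Its sample values of 0, 472 and 407 FPKM at 6 h came from 1 table of 7 in replicate 2, with 3301 FPKM, and 1 table of 5 in replicate 3, with 2033 FPKM, all others being at 0. PYK2 had 2678 FPKM at 6 h and 3199 FPKM at 36 h. With the tables of a sample combined by their median instead of their mean, KLMA_60220 no longer met the thresholds, and its 6 h level rests on these 2 tables. KLMA_10277 and KLMA_10520 are the other loci with no symbol. KLMA_10277 (chromosome 1, 561930 to 562706) had 149.8, 134 and 134 FPKM at 6 h and 5.57, 2.85 and 1.69 FPKM at 36 h, a 32.1-fold lower level with little spread at 6 h. KLMA_10520 had 68.5, 186 and 194 FPKM at 6 h and 9.60, 10.5 and 12.6 FPKM at 36 h.

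**Figure D4:**
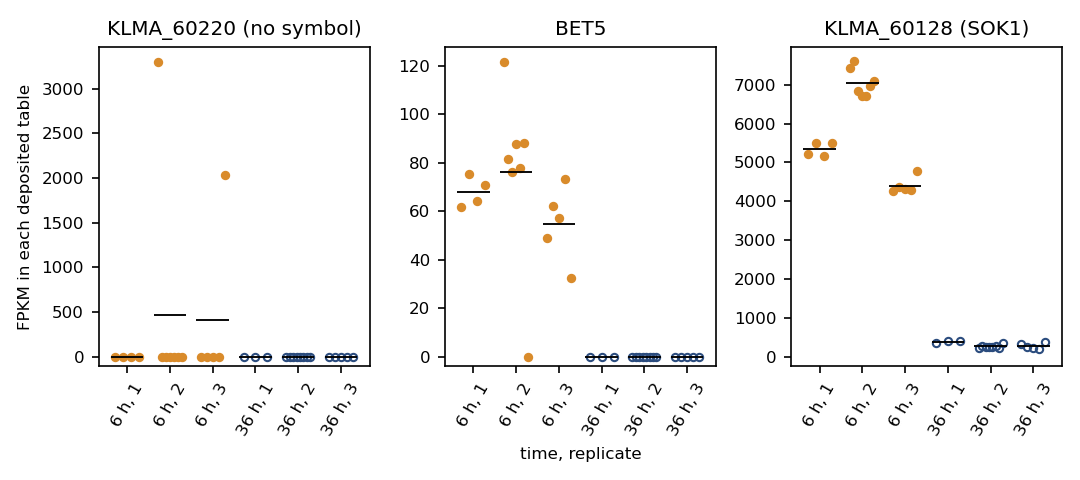
FPKM of 3 loci in each deposited table, by sample, with filled points at 6 h, open points at 36 h and a line at the mean over the tables of a sample. KLMA_60220 is above 0 in 2 tables only and BET5 is at 0 in every 36 h table, whereas every table of KLMA_60128 is above 0 and every 6 h table lies above every 36 h table.

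The 47 loci split by how the 6 h samples related to each other. The thresholds used the mean of these same samples, so a locus with 1 high 6 h sample could meet them more easily. Over all 47, replicate 1 was the lowest 6 h sample in 31 (66.0%) and replicate 2 the highest in 36 (76.6%). In the 17 amino acid synthesis loci replicate 1 was the lowest 6 h sample in 15 (88.2%) and replicate 2 the highest in all 17, and the median difference of replicate 1 from the mean of the other samples was -1.32 on log2(FPKM + 1). The arginine loci ARG1, ARG7 and ARG4, from -1.52 to -1.38, lay close together, as did 4 aromatic loci, from -1.44 to -1.25, with ARO7 apart at -2.07, while LYS12 was at -1.32 and LYS4 at -0.23. In the 9 loci of histones, the division cycle, the bud and the wall replicate 1 was lowest in 2 and replicate 2 highest in 3, and the median difference was 0.22, with TUB1 at 0.70 and HHT2 at 0.65. In the 2125 other loci at 50 FPKM or more replicate 1 was lowest in 45.4% and replicate 2 highest in 46.3%, and the median difference was -0.07. The loci of a pathway share their 3 samples, so these counts describe the samples and not independent cases. The same replicate stood apart elsewhere, with a median difference of 1.43 over the 75 loci of ribosome biogenesis, and its part in the falls given above was not tested.

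**Figure D5:**
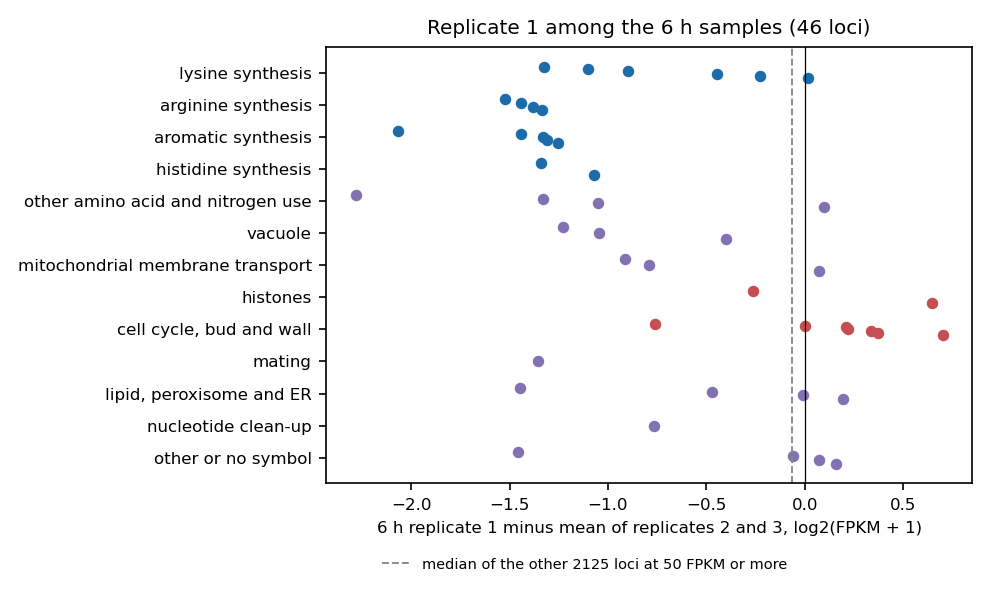
Difference of replicate 1 from the mean of replicates 2 and 3 at 6 h, on log2(FPKM + 1), for 46 loci by role, with KLMA_60220 at -8.78 left off the axis. The arginine, aromatic and histidine loci all lie below -1, while 7 of the 9 histone and division cycle loci lie above 0.

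This spread bears on which loci meet the thresholds. Without replicate 2 at 6 h 34 loci met them, 32 of the 47 among these, and 8 of the 15 lost were amino acid synthesis loci, 4 of them of the 5 aromatic ones. Without replicate 1 at 6 h 54 loci met them and 45 of the 47 remained. At 36 h replicate 1, the shallowest sample, was the highest in 32 of the 47 (68.1%) and in 66.6% of the other loci at 50 FPKM or more.

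The 47 loci lay on all 8 chromosomes, from 2 on chromosome 5 to 10 on chromosome 1, and none was the direct neighbour of another. Their lengths ran from 312 to 4161 nt with a median of 1131 nt. By symbol 43 had a counterpart in S. cerevisiae S288C, and in 34 the length was within 10% of the counterpart's coding length. The EGT2 locus, of 1728 nt, reached 55.3% of its counterpart's length. The fragments behind the 36 h values, summed over the 3 samples, had a median of 499, and 6 loci had fewer than 100, so counting error limits the ratios of the loci at the lowest levels, such as DSE1, STE3 and PCL1.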

How the data were processed

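Total RNA was made into TruSeq V2 libraries, per the labels' protocols. The submitters' processing notes name Cuffdiff 2.2.1.5, Cufflinks 2.2.1.2, FastQC 0.10.1, TopHat2 2.0.8 and Trim Galore 0.4.3.1, with no role or order. The genome build is not given in the sources used here. Per locus, the authors deposited values as FPKM in tables with the layout of Cufflinks gene tracking, per the file headers, 32 for K. marxianus and 3 to 8 for each of its samples. How the tables of a sample differ is not stated, so they were averaged to 1 value per sample (n = 3 per time). The 36 values marked LOWDATA were treated as missing. In 28 of the 32 tables fragment numbers were recovered by dividing 2 times the FPKM by its gap to the upper limit and squaring, which came out whole below 5.5 fragments, within 0.02, for a median of 95.1% of values. In the other 4, all of replicate 2 at 6 h, the depth is unknown.

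Symbols and gene extents came from RefSeq assembly Kmar_1.0 of strain DMKU3-1042, which matched 5095 of 5319 tags and gave 4352 symbols. Coordinates are those of the tables, counted from 1, and were identical for 96.2% of matched loci and for 44 of the 47. Loci with a mean of at least 1 FPKM (4929) were tested with limma (version 3.58.1, R 4.3.3), trended by intensity, on log2(FPKM + 1) as 36 h minus 6 h. A change on this scale understates that of low loci. The fit was tested on simulated data with noise drawn separately for each locus, so deviations shared by many loci of a sample were not covered. The 47 loci and the gene lists were chosen with earlier results of these data known. The rule for naming took the 15 lowest ratios, the 10 highest 6 h means, up to 4 loci per list, loci at 0 at 36 h, those at the thresholds and those sharing a symbol, and up to 3 other loci per list. The remaining loci of the 47, and the other loci beyond those 3, were named after their values were seen. Of the S. cerevisiae loci 444 of 6461 carry a name and 0 the symbol of any of the 47, so the planned S. cerevisiae comparisons were not run. A planned motif search was not run, since no K. marxianus sequence was used here. Alternatives were other pseudocounts, filters, scalings, thresholds and ways of combining tables, voom on recovered fragments, a replicate block and leaving out each sample. The values of 2 of the 47 loci are not reported here by name, although both enter the counts.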

Additional observations from a re-analysis of the deposited data

How the results depend on the processing

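Against the 47 loci, 20 met the thresholds with a pseudocount of 10, 135 with a ratio of at most 1/4 and 14 with a ratio of at most 1/16. The first loses loci at low levels by construction, and the others follow from the threshold itself. Leaving out each sample in turn gave 34 to 54 loci, and the remaining alternatives gave 36 to 57, namely a pseudocount of 0.1, table medians, group medians, scaling, 6 h floors of 20 and 100 FPKM, and leaving out doubtful tables or keeping marked values. Of the 47, 15 met the thresholds under all 14 settings that keep them as given. AIM44 did so under 6. The limma counts of 960 lower and 1048 higher loci ranged from 594 to 1023 and from 791 to 1021 with a sample left out, and the value of 594 came without replicate 2 at 6 h, a fit with fewer samples. Voom on recovered fragments called 1118 lower and 1070 higher. Leaving out the tables that gave no whole fragment numbers was chosen after seeing the data. Samples with the same replicate number correlated at 0.04, -0.07 and -0.23 in their deviations from the group means. With 3 samples per time this cannot show whether samples of the same number shared a culture. The replicate block gave 882 lower and 984 higher loci. Of 845 recomputed log2 changes of the 47 loci, 35 moved by more than the replicate spread and 0 reversed. Among the list counts 2 moved, the lower calls under nitrogen catabolite repression, from 8 to 5 without a filter and to 5 without replicate 2 at 36 h. The alternatives planned for S. cerevisiae were not run. Depth limits loci with few fragments at 36 h.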
